A study of Rattus norvegicus with 40 samples.

Results

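Fos, Jun, Junb, Egr1, Atf3 and Myc encode transcription factors of the immediate early response, and their RNA levels were followed here in gastrocnemius and triceps of aging rats. The genes were taken by their rat Ensembl identifiers, with no measured value in the rule. Fos is ENSRNOG00000008015, Jun is ENSRNOG00000026293, Junb is ENSRNOG00000042838, Egr1 is ENSRNOG00000019422, Atf3 is ENSRNOG00000003745 and Myc is ENSRNOG00000004500. They are 6 of the 32545 genes in the table, and all 6 were found and passed the filter on low counts in every comparison, with 49 to 16554 reads of a gene in a library.

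Immediate early genes are transcribed within minutes of a stimulus from factors that already lie in the cell, without new protein synthesis, and their RNAs are short-lived. Growth factors, calcium, mechanical load, injury and metabolic stress induce them, and in skeletal muscle a bout of contraction is a well known inducer. Fos and Jun proteins pair into the AP-1 dimer, Junb is an AP-1 subunit with a role in keeping up muscle size, Egr1 is a zinc finger factor switched on through serum response factor, Atf3 is a stress-induced member of the ATF/CREB family, and Myc drives growth and ribosome production.

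The study asked how skeletal muscle changes toward sarcopenia, the loss of muscle mass and strength in old age. RNA-Seq was done on gastrocnemius, a calf muscle, and triceps, a muscle of the upper fore limb, from 20 male Wistar rats, an outbred strain. The animals were aged 20 months (10 rats) or 22 months (10 rats), and every rat contributed a library of each muscle, for 40 libraries in 4 groups of 10. The labels name no treatment, diet or genotype. Library totals ranged from 10983887 to 68580194 reads. The labelled muscles were not checked against marker genes, because the table pairs no identifier with a gene name. By the root mean square distance of log2 CPM over 12980 genes, 2 of the 40 libraries lay nearer to the mean of the other muscle at their age than to the other libraries of their own group. Triceps replicate 7 of 20 months stood farthest from its group, at 0.635 against 0.586 to gastrocnemius, and gastrocnemius replicate 1 of 20 months was almost equidistant, at 0.453 against 0.448. Comparisons that include triceps replicate 7 were repeated without it.

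The promoters of the immediate early genes carry short sequences through which signals reach them, so the window from 250 bases before to 50 bases after the transcription start is shown for the 2 members for which a RefSeq promoter was at hand, on build GRCr8. No promoter is shown for Fos, Jun, Atf3 and Myc. The Egr1 window is chr18:26736828-26737127 and the Junb window is chr19:40080876-40081175, both on the plus strand and both rich in G and C, at 64.7% and 65.3%. Capitals mark matches to a searched motif.
Egr1: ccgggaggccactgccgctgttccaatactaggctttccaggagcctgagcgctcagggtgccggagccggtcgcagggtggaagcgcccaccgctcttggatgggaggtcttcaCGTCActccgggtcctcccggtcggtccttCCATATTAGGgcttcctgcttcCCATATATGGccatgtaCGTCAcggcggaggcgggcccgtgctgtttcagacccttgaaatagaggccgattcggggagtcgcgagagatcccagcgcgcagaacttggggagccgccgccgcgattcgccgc
Junb: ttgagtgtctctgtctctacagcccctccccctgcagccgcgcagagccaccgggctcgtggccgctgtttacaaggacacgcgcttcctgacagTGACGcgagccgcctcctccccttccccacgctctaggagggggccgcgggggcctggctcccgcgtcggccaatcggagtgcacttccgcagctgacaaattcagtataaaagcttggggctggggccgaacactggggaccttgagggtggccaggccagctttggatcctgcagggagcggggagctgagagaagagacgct
Both strands were searched for 6 motifs: the CArG box bound by serum response factor, the cyclic AMP response element (CRE) TGACGTCA, its short form CGTCA, the AP-1 site TGANTCA, the EGR site GCGTGGGCG and the E-box CACGTG that Myc can bind. The Egr1 window held 2 CArG boxes, CCATATTAGG at -105 to -96 and CCATATATGG at -83 to -74 from the start, a motif found in 1.64% of 33469 rat promoters of the same length. It also held 2 short CREs CGTCA, at -135 to -131 and at -66 to -62. The Junb window held 1 short CRE, on the minus strand, printed as TGACG at -155 to -151, and 21.2% of all promoters held at least 1. No match overlapped another. Neither window held the full CRE (1.83% of promoters), the AP-1 site (7.33%), the EGR site (0.544%) or the E-box (6.42%). These matches describe the letters in the windows and say nothing of binding in these muscles.

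For each gene but Myc in gastrocnemius, the mean log2 levels of both ages lay closer together than the larger SD between animals of an age. None of the 6 passed the test for a difference between 20 and 22 months in either muscle, Myc was higher in gastrocnemius than in triceps at 22 months, and no other member passed the test for a difference between muscles. Within a muscle several of the genes rose and fell together from animal to animal, above all Fos with Egr1. The level of a member in gastrocnemius did not correlate past the threshold with its level in triceps of the same animal, for any of the 6. In whole muscle, fewer cells of a type and less RNA per cell cannot be told apart. Levels below are CPM, a gene's read counts relative to the library size, which was scaled by TMM (the trimmed mean of M values, a correction for composition), and differences are on the log2 scale with their standard error (SE).

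**Figure D1:**
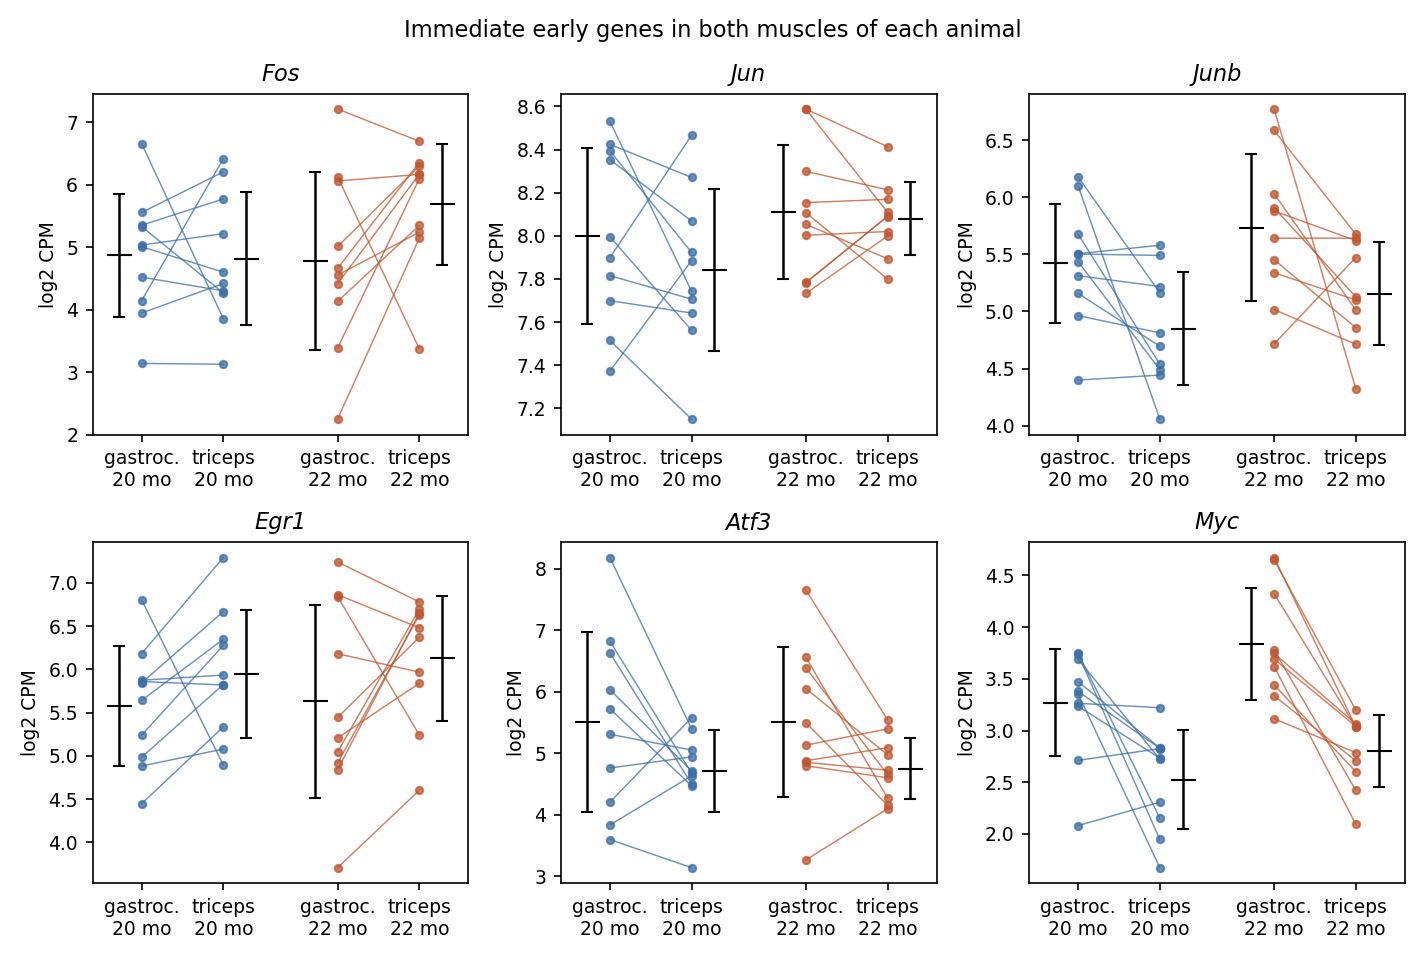
Level of each immediate early gene (log2 CPM, own axis per gene) in gastrocnemius (gastroc.) and triceps at 20 months (blue) and 22 months (orange). Points are libraries, lines join both muscles of an animal, and black bars give the mean ± SD of 10 libraries. Gastrocnemius was the higher muscle for Myc in 8 of 10 animals at 20 months and in 10 of 10 at 22 months, while the lines of Fos and Egr1 crossed in both directions.

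Fos, an AP-1 subunit whose RNA appears and decays within the hour after a stimulus, was 9.88 to 31.9 times as high in the highest as in the lowest library of a group. In gastrocnemius it was at 8.73 CPM in the lowest, 32.4 in the median and 101 in the highest library at 20 months, and at 4.66, 24.3 and 149 CPM at 22 months. In triceps it was at 8.65, 22.8 and 85.5 CPM at 20 months and at 10.3, 70.1 and 104 CPM at 22 months. Replicate 4 stood alone at the top of gastrocnemius at 20 months, with 47.1 CPM next, as did replicate 1 at 22 months, with 69.9 CPM next, and the ranges of all 4 groups overlapped. The group means were 35.9 ± 26.1 CPM in gastrocnemius at 20 months, 42.0 ± 43.3 at 22 months, and 35.9 ± 26.6 and 60.1 ± 28.0 CPM in triceps (SD, n = 10 each).

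Jun, the partner of Fos in the classical AP-1 dimer, was the steadiest member. It ran from 166 to 370 CPM with a median of 247 in gastrocnemius at 20 months and from 213 to 385 with a median of 271 CPM at 22 months. In triceps it ran from 142 to 354 with a median of 225 CPM at 20 months and from 223 to 341 with a median of 272 CPM at 22 months. All 4 ranges overlapped, and the highest library was 1.53 to 2.49 times the lowest within a group. The means were 265 ± 73.2 and 282 ± 62.8 CPM in gastrocnemius and 236 ± 61.3 and 272 ± 32.7 CPM in triceps at 20 and 22 months.

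Junb had its highest libraries in gastrocnemius. There it ran from 21.0 to 72.4 CPM with a median of 44.3 at 20 months and from 26.2 to 109 CPM with a median of 54.3 at 22 months. In triceps it ran from 16.6 to 47.8 CPM with a median of 26.9 at 20 months and from 20.0 to 51.1 CPM with a median of 34.6 at 22 months. At both ages 8 of 10 animals had more Junb in gastrocnemius, and the ranges of both muscles overlapped. The means were 45.3 ± 15.7 and 58.2 ± 26.7 CPM in gastrocnemius and 30.3 ± 10.5 and 37.1 ± 10.9 CPM in triceps.

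Egr1 had its highest group mean in triceps, at 69.5 ± 38.0 CPM at 20 months and 76.6 ± 29.7 at 22 months, against 52.8 ± 26.1 and 63.9 ± 47.2 CPM in gastrocnemius. In gastrocnemius its libraries ran from 21.7 to 112 CPM with a median of 53.6 at 20 months and from 13.0 to 151 CPM with a median of 40.1 at 22 months. In triceps they ran from 29.6 to 157 CPM with a median of 58.8 at 20 months and from 24.2 to 110 CPM with a median of 85.9 at 22 months. Gastrocnemius was the higher muscle in 2 of 10 animals at 20 months and in 4 of 10 at 22 months, and the ranges overlapped. The highest triceps library at 20 months, at 157 CPM, was replicate 7, the library that lay nearer to gastrocnemius over all genes.

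Atf3 had a wider range in gastrocnemius than in triceps. In gastrocnemius it was at 12 CPM in the lowest, 46.1 in the median and 291 in the highest library at 20 months, and at 9.51, 40.0 and 202 CPM at 22 months. In triceps the same values were 8.71, 25.8 and 47.7 CPM at 20 months and 17.0, 25.7 and 46.6 CPM at 22 months. In gastrocnemius 5 libraries at 20 months and 4 at 22 months lay above the triceps range of their age, others lay within it and 1 lay below it, and 7 of 10 animals had more Atf3 in gastrocnemius at each age. The means were 73.3 ± 84.2 and 62.1 ± 55.9 CPM in gastrocnemius and 28.3 ± 10.9 and 28.4 ± 10.1 CPM in triceps. The highest gastrocnemius libraries were replicate 7 of 20 months and replicate 4 of 22 months, each over 2 times the next.

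Myc had little overlap between the muscles at 22 months. In gastrocnemius it ran from 4.15 to 13.4 CPM with a median of 10.2 at 20 months and from 8.57 to 25.4 CPM with a median of 13.1 at 22 months. In triceps it ran from 3.11 to 9.24 CPM with a median of 6.55 at 20 months and from 4.18 to 9.09 CPM with a median of 7.47 at 22 months. At 22 months the muscles overlapped by a single gastrocnemius library, replicate 8 at 8.57 CPM, which lay below triceps replicate 4 at 9.09. The means were 10.0 ± 2.95 and 15.2 ± 6.09 CPM in gastrocnemius and 5.95 ± 1.87 and 7.05 ± 1.57 CPM in triceps.

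The order of the groups by mean log2 CPM differed from gene to gene. For Junb and Myc it ran from gastrocnemius at 22 months through gastrocnemius at 20 months and triceps at 22 months to triceps at 20 months. For Jun it ran from gastrocnemius at 22 months, 8.11, through triceps at 22 months, 8.08, and gastrocnemius at 20 months, 8.0, to triceps at 20 months, 7.84. Egr1 was highest in triceps at 22 months, 6.12, and lowest in gastrocnemius at 20 months, 5.58, whereas Fos was highest in triceps at 22 months, 5.69, and lay between 4.78 and 4.87 in the other groups. Atf3 was at 5.51 in gastrocnemius at both ages and at 4.75 and 4.71 in triceps at 22 and 20 months. Of the 18 steps between neighbours in these orders, 17 were within the larger of both SDs. The exception was Myc in gastrocnemius, at 3.84 ± 0.54 at 22 months against 3.27 ± 0.52 at 20 months.

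The spread between animals exceeded that of most genes for each member except Jun in triceps at 22 months. The coefficient of variation (CV, the SD over the mean) of Fos was 72.7% and 103% in gastrocnemius and 74.1% and 46.6% in triceps at 20 and 22 months, where the median CV of the 12980 genes was between 17.0% and 18.6%. Fos exceeded the CV of 93.5% to 99.7% of genes. Atf3 reached 115% and 90.0% in gastrocnemius and 38.5% and 35.6% in triceps, and Egr1 was between 38.7% and 73.9%. Jun, at 12% to 27.6%, exceeded the CV of 24.8% to 73.9% of genes. Junb and Myc lay between, at 29.5% to 45.8% and at 22.2% to 40.2%.

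The study compared the CVs of individual genes between ages in gastrocnemius, with the youngest age as baseline. Here the SD of log2 CPM of each member was compared between 20 and 22 months in each muscle. Measure, genes and age span differ, so these tests do not bear on the study's comparison. No difference passed among 12 two-sided permutation tests with 100000 resamples. In gastrocnemius the SD of Egr1 was 0.69 at 20 months and 1.12 at 22 months (p = 0.116, adjusted over the 12 tests 0.697), and that of Fos was 0.98 and 1.43 (p = 0.301, adjusted 0.726). In triceps the SD of Jun was 0.37 and 0.17 (p = 0.0971, adjusted 0.697).

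Age was then tested within each muscle with edgeR's quasi-likelihood F-test, two-sided and adjusted by the Benjamini-Hochberg method over all genes tested, as 22 minus 20 months. None of the 6 genes was called at an adjusted p under 0.01 in either muscle, where 0% of 12659 genes in gastrocnemius and 0% of 12345 genes in triceps were called. An unadjusted p under 0.05 was reached by 1308 genes in gastrocnemius, Myc among them, and by 1084 genes in triceps, none of them a member. DESeq2 called 1 gene in gastrocnemius and 0 in triceps, and no member. The differences of the 6 genes had a median of 0.26 in gastrocnemius and of 0.23 in triceps, beside 0.01 over all genes in both, and 5 of 6 were above 0 in gastrocnemius and 6 of 6 in triceps. Atf3 in triceps was at 0.01 ± 0.23, at -0.0035 without a filter and at -0.10 to 0.12 without a library. The share of all genes above 0 is not given here. The gastrocnemius median was 0.10 with limma-voom, 0.11 with the number as a block and 0.43, beside 0.14 over all genes, with library totals. Both muscles came from the same animals, so these are not separate sets of animals. The 6 genes also correlate with each other, so their signs are not independent. In gastrocnemius the median CPM of Fos went from 32.4 to 24.3 with age, and that of Egr1 from 53.6 to 40.1. By mean log2 CPM Fos went from 4.87 to 4.78 and Egr1 from 5.58 to 5.63. The medians of Jun, Junb and Myc were higher at 22 months, and that of Atf3 was lower.

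Myc had the largest difference with age in gastrocnemius, at 0.61 ± 0.22 (p = 0.0133, adjusted p = 0.416), and 0.26 ± 0.17 in triceps (adjusted p = 0.696). Fos had the largest in triceps, at 0.73 ± 0.38 (p = 0.0678, adjusted p = 0.596), and 0.23 ± 0.50 in gastrocnemius (adjusted p = 0.872). Junb was at 0.37 ± 0.25 in gastrocnemius and 0.29 ± 0.20 in triceps, with adjusted p values of 0.580 and 0.694. Jun was at 0.10 ± 0.15 and 0.21 ± 0.12, and Egr1 at 0.29 ± 0.38 and 0.14 ± 0.29. Atf3 was at -0.23 ± 0.56 in gastrocnemius and at 0.01 ± 0.23 in triceps. The SE of Fos in gastrocnemius was larger than that of 99.3% of genes, and 1 library turned its direction, to -0.23 without gastrocnemius replicate 1 of 22 months. Likewise Atf3 in gastrocnemius was at 0.36 without replicate 7 of 20 months.

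Whether the age difference itself differed between the muscles was tested on all 40 libraries as gastrocnemius minus triceps. No member was called, and 0% of 12980 genes were, while 389 genes and no member reached an unadjusted p under 0.05. The largest values were -0.51 ± 0.65 for Fos and 0.34 ± 0.29 for Myc, and each of the 6 had an adjusted p of 0.999. This fit treats the 2 libraries of an animal as separate. With the animal as a block Fos was at -1.01 ± 0.61 (p = 0.112, adjusted p = 0.932), with limma-voom at -0.93, and without replicate 4 of 20 months at -0.069. DESeq2 also called 0 genes and gave 429 an unadjusted p under 0.05.

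**Figure D2:**
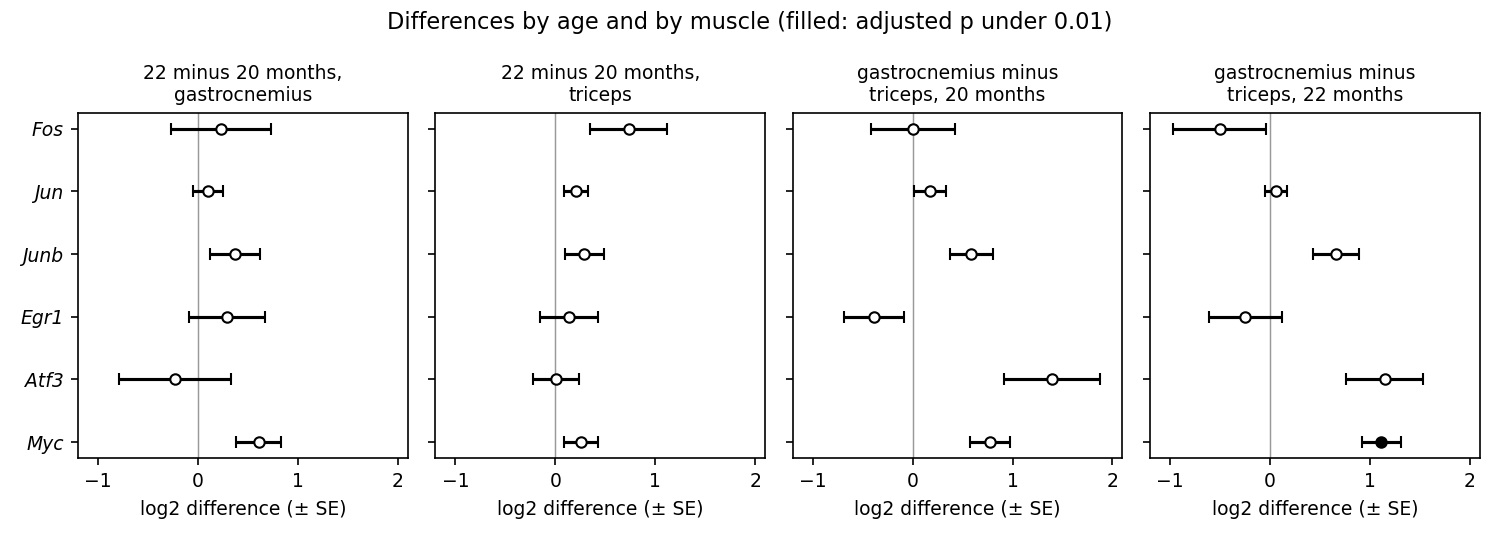
Differences of the 6 genes by age (22 minus 20 months in each muscle) and by muscle (gastrocnemius minus triceps at each age), as log2 difference with bars of ± 1 SE from edgeR. Only the filled point, Myc between muscles at 22 months at 1.12 ± 0.20, passed an adjusted p under 0.01, and the widest bars belong to Fos and Atf3. The fits between muscles treat both libraries of an animal as separate.

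Between the muscles, as gastrocnemius minus triceps, Myc was called at 22 months and no member was called at 20 months. Except where a block is named, these fits treat both libraries of an animal as separate. At 22 months 20.3% of 12565 genes were called, with 10.5% higher in gastrocnemius and 9.82% lower, so 1 of 6 is near the share of all genes. At 20 months 3.76% of 12426 genes were called, with 2.39% higher and 1.37% lower, and 0 of the 6. Myc was higher in gastrocnemius by 1.12 ± 0.20 at 22 months (p = 9.46e-06, adjusted p = 0.000176), and gastrocnemius was the higher muscle in 10 of 10 animals by 0.33 to 1.64 in log2 CPM. With the animal as a block the value was 1.06 ± 0.13 (adjusted p = 5.91e-05), and leaving out each animal in turn kept the adjusted p between 0.000175 and 0.000660. At 20 months Myc was at 0.77 ± 0.20 (p = 0.00100, adjusted p = 0.0184), outside the threshold with edgeR and past it with DESeq2 (adjusted p = 0.00375). Leaving out single animals moved the adjusted p to both sides, to 0.00650 (at 0.84) without replicate 1 of 20 months, and past 0.05 without replicate 3 (0.68, adjusted p = 0.0731), replicate 4 (0.66, adjusted p = 0.0690) or replicate 5 (0.70, adjusted p = 0.0523). The gastrocnemius library of replicate 1 was the one almost equidistant between the muscles over all genes, and it had the lowest gastrocnemius Myc of its age, 4.15 CPM.

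Atf3 and Junb had positive differences at both ages that did not pass. Atf3 was at 1.39 ± 0.48 at 20 months (adjusted p = 0.0672) and at 1.15 ± 0.38 at 22 months (adjusted p = 0.0240), and Junb at 0.59 ± 0.21 (adjusted p = 0.0850) and 0.67 ± 0.23 (adjusted p = 0.0294). At an adjusted p under 0.05, 9.68% of genes were called at 20 months and 33.9% at 22 months. Myc alone of the members was past it at 20 months, and Myc, Atf3 and Junb were at 22 months, where with the animal as a block Myc alone was. The block put Atf3 at 0.85 ± 0.38 at 20 months (adjusted p = 0.160) and at 0.77 ± 0.29 at 22 months (adjusted p = 0.0558). Without replicate 7 of 20 months Atf3 at 20 months was at 0.90, and without replicate 4 of 22 months Atf3 at 22 months was at 0.84.

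Fos, Egr1 and Jun showed no call between the muscles. Fos was at 0.00 ± 0.42 at 20 months and at -0.50 ± 0.47 at 22 months (adjusted p = 0.428), where 2 of 10 animals had more Fos in gastrocnemius. With the animal as a block Fos at 22 months was at -0.98 ± 0.44 (p = 0.0419, adjusted p = 0.0963). Egr1 was at -0.39 ± 0.30 and -0.24 ± 0.37, the latter at 0.00 when libraries were scaled by their totals alone. Jun was at 0.17 ± 0.16 and 0.06 ± 0.11, smaller than the median size over all genes, 0.20, at 22 months. Without triceps replicate 7 no member was called at 20 months either, and Egr1 was then at -0.16. Without replicate 4 of 20 months Egr1 was at -0.68 (p = 0.0232, adjusted p = 0.158).

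Agreement of both muscles of an animal was measured as the correlation of log2 CPM in gastrocnemius with that in triceps over the 20 animals, each muscle centred on the mean of its age group. No member passed an adjusted p under 0.05 in two-sided permutation tests with 100000 resamples, adjusted over the 6 correlations. No member had an r over 0.5, which 8.31% of the 12980 genes had, and 3 of the 6 lay above the median r of all genes, 0.181. Jun had the highest r, 0.431 (rho = 0.411, p = 0.0910, adjusted p = 0.304, 95% interval by Fisher's z from -0.0289 to 0.740). With the 2 most extreme animals in gastrocnemius left out it was 0.561, and it was 0.417 within the 20-month animals and 0.515 within the 22-month animals. Across 5 other settings it ran from 0.210 to 0.489, and with each animal left out in turn from 0.308 to 0.555. Atf3 followed at 0.397 (rho = 0.220, p = 0.101, adjusted p = 0.304, interval -0.0696 to 0.721) and came to 0.174 without replicate 7 of 20 months and replicate 4 of 22 months. Egr1 was at 0.262 (rho = 0.177, p = 0.278), Myc at 0.157 (rho = 0.203, p = 0.521), Fos at 0.124 (rho = 0.155, p = 0.607) and Junb at -0.0362 (rho = 0.0602, p = 0.880). With the 2 most extreme animals left out Egr1 was at -0.104, Myc at 0.0411, Fos at -0.0666 and Junb at -0.0745. Within the 20-month and 22-month animals Atf3 was at 0.374 and 0.435, Egr1 at 0.209 and 0.308, Myc at -0.117 and 0.527, Fos at 0.191 and 0.0785, and Junb at 0.0696 and -0.131. The rank correlations had permutation p values from 0.0908 to 0.805. The intervals reach from -0.482 to 0.425 for Junb and from -0.350 to 0.547 for Fos, so correlations of moderate size in either direction lie within what 20 animals allow.

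Single animals agreed or disagreed in ways that the correlations average. Replicate 5 of 20 months had the lowest Fos of its age in both muscles, 8.73 and 8.65 CPM, and the lowest Atf3 in both, 12 and 8.71 CPM. Replicate 1 of 22 months had the highest Fos in both, 149 CPM in gastrocnemius and 104 in triceps. Replicate 4 of 22 months had the highest Egr1, 151 and 110 CPM, and the highest Atf3, 202 and 46.6 CPM, in both muscles, and replicate 6 of 22 months the lowest of each, at 13.0 and 24.2 CPM for Egr1 and at 9.51 and 17.0 CPM for Atf3. Replicate 4 of 20 months, in contrast, had the highest Fos and Egr1 in gastrocnemius, 101 and 112 CPM, and ranked 9 of 10 for Fos and 10 of 10 for Egr1 in triceps, at 14.4 and 29.6 CPM. Its triceps library had the highest total of the series, 68580194 reads. The agreement r of Egr1 was 0.430 without this animal, and that of Fos was -0.0254 without replicate 5 of 20 months. Replicate 2 of 22 months ranked second for Fos in gastrocnemius, at 69.9 CPM, and last in triceps, at 10.3 CPM. The largest gap between the muscles of an animal was that of Fos in replicate 6 of 22 months, at -2.90 in log2 CPM for gastrocnemius minus triceps. These animals were picked for their values, and no test was made of them.

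**Figure D3:**
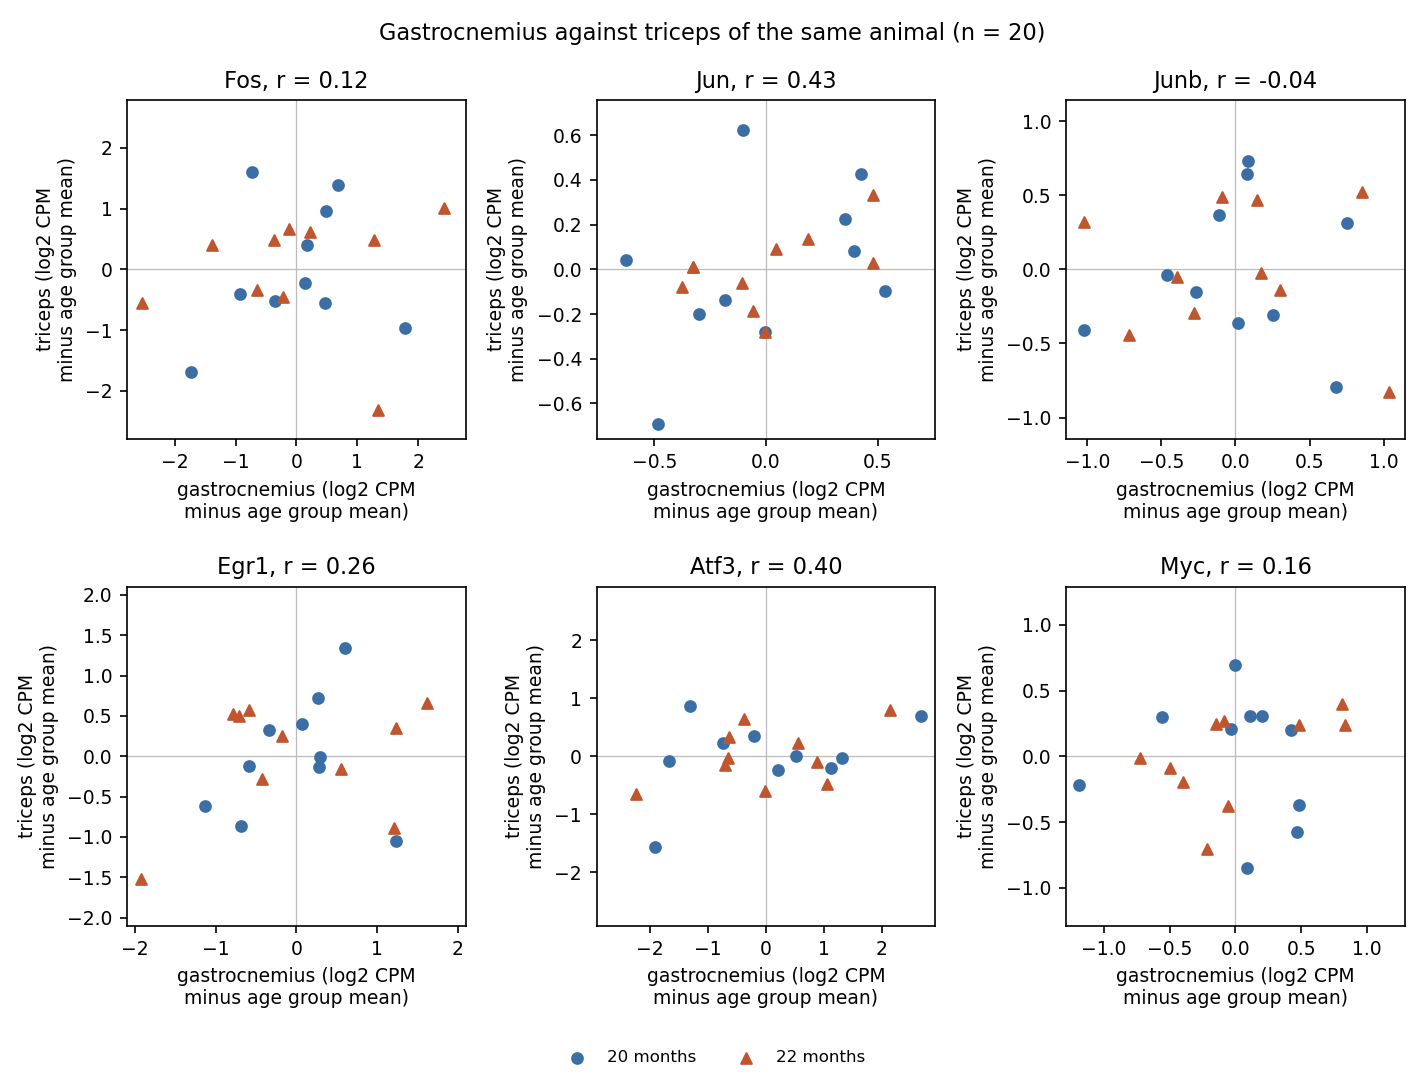
Log2 CPM of each gene in gastrocnemius (x axis) and triceps (y axis) of the same animal, each minus the mean of its age group, for 10 animals of 20 months (circles) and 10 of 22 months (triangles). The points of Junb and Fos form no line, with r of -0.04 and 0.12, and those of Jun and Atf3 lean upward, with r of 0.43 and 0.40 that did not pass the test.

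Within a muscle some pairs of members were closely correlated. All 15 pairs had a positive r of age-centred log2 CPM over the 20 animals in gastrocnemius, with a median of 0.475 and a range of 0.190 to 0.910, and all 15 in triceps, with a median of 0.383 and a range of 0.0780 to 0.786. By two-sided permutation tests with 100000 resamples, adjusted over the 30 correlations, 7 pairs passed an adjusted p under 0.05 in gastrocnemius and 4 in triceps, and these pairs were also those with an r over 0.5. Among all 84233710 pairs of the 12980 genes, 10.9% had an r over 0.5 in gastrocnemius and 6.03% in triceps, and 49.98% and 49.69% were positive. Within each age all 15 pairs were still positive in gastrocnemius, and in triceps all 15 were at 20 months, while 5 of 15 were negative at 22 months (4 of them pairs of Jun, the lowest Jun with Myc at -0.354). Spearman's rho in triceps was also negative for Jun with Atf3 (-0.268) and Jun with Myc (-0.0316). The pairs share genes and animals and are not independent. Leaving out each animal in turn gave 6 to 15 passing pairs, and the lowest count came without replicate 2 of 22 months. The 6 pairs that passed whichever animal was left out were Fos with Egr1, Fos with Atf3, Egr1 with Atf3 and Junb with Myc in gastrocnemius, and Fos with Egr1 and Junb with Egr1 in triceps, while the other 5 came to adjusted p values of up to 0.0952. Spearman's rho gave 7 and 4 passing pairs.

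Fos and Egr1 were the closest pair in both muscles, with an r of 0.910 in gastrocnemius (rho = 0.910, p = 1e-05, the smallest that these permutations can give, adjusted p = 0.000150) and of 0.786 in triceps (rho = 0.806, p = 0.000220, adjusted p = 0.00165). With the 2 animals most extreme in Fos left out the values were 0.877 and 0.763, and within each age they were between 0.680 and 0.933. Over all 40 libraries, centred on the 4 group means, their r was 0.861. Of the 9752 other genes at or above 5 CPM on average, Egr1 was the most like Fos, and Fos was the most like Egr1.

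Egr1 was joined by Junb and Atf3. Junb and Egr1 correlated at 0.596 in gastrocnemius (rho = 0.603, p = 0.00961, adjusted p = 0.0292) and 0.729 in triceps (rho = 0.792, p = 0.000570, adjusted p = 0.00342). Egr1 and Atf3 correlated at 0.757 (rho = 0.738, p = 7.00e-05, adjusted p = 0.000700) and 0.568 (rho = 0.571, p = 0.0107, adjusted p = 0.0292), the latter at 0.512 without triceps replicate 7 of 20 months (adjusted p = 0.0662). Fos and Junb, which can pair in the AP-1 dimer, correlated at 0.624 in gastrocnemius (rho = 0.693, p = 0.00602, adjusted p = 0.0226) and 0.650 in triceps (rho = 0.621, p = 0.00287, adjusted p = 0.0123). With the 2 animals most extreme in the first gene left out, these pairs kept an r between 0.442 and 0.708.

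In gastrocnemius alone 3 further pairs passed. Junb and Myc correlated at 0.852 (rho = 0.782, p = 1e-05, adjusted p = 0.000150), at 0.782 within the 20-month and 0.913 within the 22-month animals, while in triceps their r was 0.260 (adjusted p = 0.348). Fos and Atf3 correlated at 0.692 (rho = 0.680, p = 0.000740, adjusted p = 0.00370) and in triceps at 0.455 (adjusted p = 0.110). Fos and Jun correlated at 0.545 (rho = 0.553, p = 0.0102, adjusted p = 0.0292) and in triceps at 0.420 (adjusted p = 0.130). With the 2 most extreme animals left out, the 3 values in gastrocnemius were 0.808, 0.679 and 0.549. Whether these correlations differ between the muscles was not tested. In triceps Jun had an r between 0.0780 and 0.291 to Junb, Egr1, Atf3 and Myc, beside the 0.420 to Fos. In gastrocnemius the r of Jun ran from 0.190 with Myc to 0.545 with Fos.

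**Figure D4:**
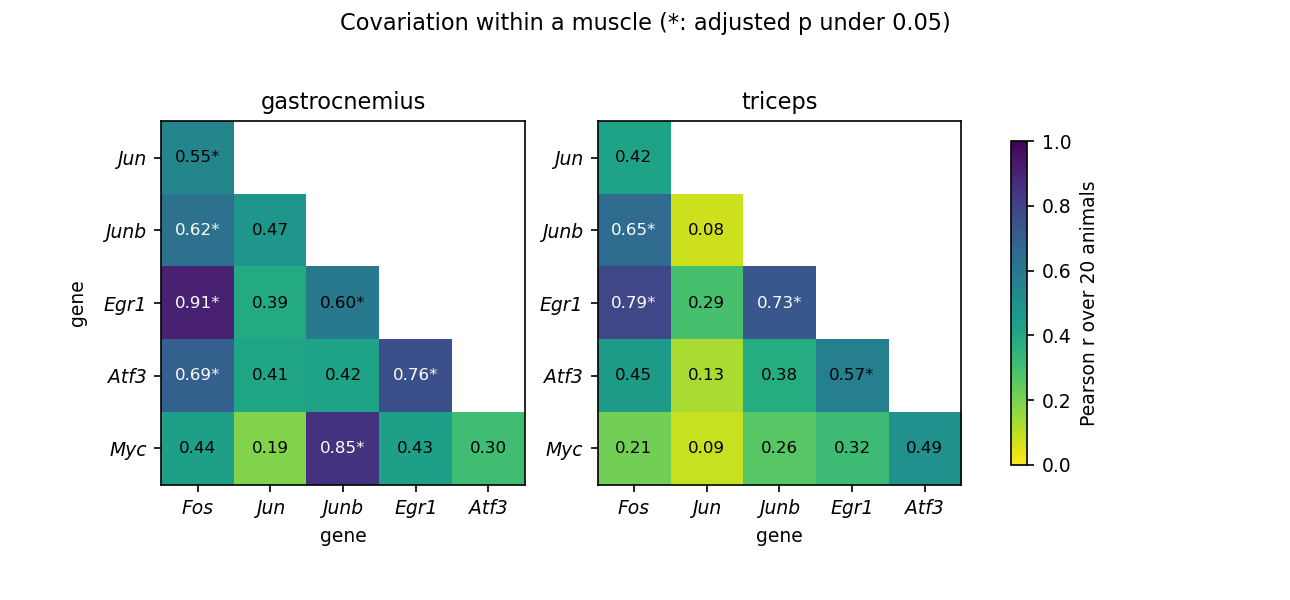
Pearson r of age-centred log2 CPM over 20 animals for each pair of the 6 genes, in gastrocnemius (left) and triceps (right), with color from 0 to 1. Stars mark pairs with an adjusted p under 0.05, 7 in gastrocnemius and 4 in triceps, and the darkest cell of each panel is Fos with Egr1, at 0.91 and 0.79.

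Other genes shared these patterns. Among the non-members at or above 5 CPM on average, the gene most like Fos over the 40 libraries was ENSRNOG00000003300, with an r of 0.816 after centring on the group means, and it ranked second for Egr1 (0.766) and for Atf3 (0.763). The most like Jun was ENSRNOG00000021338, at 0.746, the most like Egr1 was ENSRNOG00000046667, at 0.771, and the most like Atf3 was ENSRNOG00000037085, at 0.838. The table gives no names for them. For Junb the nearest member was Egr1, rank 44 of 9752 genes at 0.647, and for Myc it was Junb, rank 86 at 0.620.

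The first principal component (PC1) of each muscle, the axis along which its 20 libraries differed most over 12980 genes, was set beside the members after the data were examined. It held 32.6% of all variance in gastrocnemius, 23.1% in triceps, and its sign was set so that Myc was positive. In gastrocnemius Junb followed it with an r of 0.781 (rho = 0.788, permutation p = 2.00e-05, adjusted over the 12 correlations 0.000240), at 0.658 without the 2 most extreme animals. Myc (0.694), Egr1 (0.648), Fos (0.562) and Atf3 (0.553) also passed an adjusted p of 0.05, with rho from 0.561 to 0.584, p from 0.000340 to 0.0117 and r from 0.409 to 0.508 without 2 animals, and Jun, at 0.15, did not. The median size of r with PC1 over all genes was 0.482 in gastrocnemius, and the sizes of these 5 exceeded 58.5% to 86.6% of genes. The share of all genes that pass the same test was not computed, so a pass cannot be read as particular to the members. Without 2 animals Egr1 (0.477), Fos (0.464) and Atf3 (0.409) lay below that median, which was taken with all 20 animals. In triceps none of the 6 passed, with r from -0.186 to 0.421. No member's level correlated with library total past the threshold in either muscle, with adjusted p values of 0.781 or more.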

How the data were processed

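RNA-Seq libraries of polyadenylated RNA (miRNeasy extraction, TruSeq RNA Library Preparation Kit v2, an unstranded protocol per the study's methods) came from gastrocnemius and triceps of 20 male Wistar rats. The deposited values are raw counts of reads per Ensembl gene, made by the authors without normalization or pooling. The submitters' processing notes name CASAVA 1.8, STAR 2.3.0e, HTSeq and the build Rnor_6.0, and the annotation release and counting settings are not given in the sources at hand. Unstranded reads cannot be told apart from those of an antisense or overlapping gene. Of 32545 rows, 9545 had no count. Groups, ages and animal numbers came from the labels. Library totals were 10983887 to 68580194 reads, and the least different pair of libraries within a group had a chi-square of 9.37 per gene, above sampling noise.

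Counts were fitted in R 4.3.3 with edgeR 4.0.16 (genes with at least 1 CPM in at least 10 libraries of the fit, TMM, quasi-likelihood F-test, called at an adjusted p under 0.01), on the libraries compared only. SEs came from the F statistic. Correlations and spread used log2 CPM with a prior count of 2 in Python 3.11.15 with NumPy 2.4.6 and SciPy 1.17.1. DESeq2 1.42.0, limma-voom (limma 3.58.1), other scalings, no filter, another threshold, a block and leaving out each animal were alternatives. Statistics were tested on simulated data. Both muscles of an animal carry its number in the labels, and the pairing rests on these labels. The correlation of their deviations from the group means had a median of 0.158, was over 0.1 in 12 of 20 animals and ranged from -0.326 to 0.632. Animals of different ages that share only a number had medians of 0.0805 in gastrocnemius and 0.1002 in triceps, over 0.1 in 5 of 10 pairs each. These correlations therefore give no clear check of the pairing. The rule for the 6 members uses no measured value, but the members and the lists were chosen with earlier results of these data known. The rule for named genes took the 6 members, and, without gene names, the gene most like each of Fos, Jun, Egr1 and Atf3. Of 47357 reference genes 0 carry an Ensembl identifier, so the symbols of the 6 come from the choice of members, and other pathway lists, cell type markers, gene length and GC content were not analysed here.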

Additional observations from a re-analysis of the deposited data

Results flagged for a closer look

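Of 28 sets of 10 libraries examined for a single extreme library (24 sets of member levels and 4 of library totals), 5 had a highest library whose gap to the next, over the range of its group, exceeded Dixon's 95% critical value. About 5% of sets of normally distributed values would exceed it. In gastrocnemius the mean CPM of Fos and of Atf3 lay above the median at both ages. The share that chance gives for such skewed values is not known here, so the count is not set against chance. Gaps in log2 CPM were not examined. Fos in gastrocnemius stood out in replicate 4 at 20 months, at 101 CPM, and in replicate 1 at 22 months, at 149 CPM. Atf3 in gastrocnemius stood out in replicate 7 at 20 months, at 291 CPM, and in replicate 4 at 22 months, at 202 CPM. These gaps were on the CPM scale, and no triceps group of a member had one. Among library totals, triceps replicate 4 of 20 months stood out with 68580194 reads.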

How the results depend on the processing

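Values changed sides of a threshold in few cases. The count of members called between muscles at 20 months was 1 in place of 0 at an adjusted p of 0.05, with DESeq2, and with the animal as a replicate block at 0.05 (added after seeing the data), in each case Myc, and 0 to 1 when leaving out an animal. The count at 22 months was 3 in place of 1 at an adjusted p of 0.05 and 2 with library totals, where Atf3 was at 1.40 (adjusted p = 0.00915) beside a median over all genes of 0.20. With library totals the median over all genes was also 0.14 for age in gastrocnemius and 0.11 for muscle at 20 months. The block changed no other call at an adjusted p of 0.01. Passing pairs within muscles came to 6 to 15 without an animal, against 11. Same-numbered animals of different ages share only a number (median r 0.0805 in gastrocnemius and 0.1002 in triceps, over 0.1 in 5 of 10 pairs each), and the number as a replicate block called no member. Triceps replicate 7 of 20 months is in no fit of age in gastrocnemius or of muscle at 22 months, and for agreement leaving it out is the same as leaving out its animal.

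The values that reversed follow, and their cause was not tested. For age in gastrocnemius Fos was at -0.10 with limma-voom and -0.091 with the number block, and at -0.23 to 0.57 without a library, and Atf3 was at 0.00023 with limma-voom, 0.1003 with the block, and -0.65 to 0.36 without a library. Without an animal or library Atf3 for age in triceps was at -0.10 to 0.12, Fos for muscle at 20 months at -0.43 to 0.32, and for the difference of age effects Egr1 was at -0.079 to 0.44, Junb at -0.14 to 0.25 and Atf3 at -0.55 to 0.26. The agreement r was -0.0254 to 0.350 for Fos, -0.150 to 0.192 for Junb and -0.00686 to 0.430 for Egr1, and in triceps r was -0.438 to 0.209 for Jun and Atf3, -0.0229 to 0.232 for Jun and Junb and -0.305 to 0.235 for Jun and Myc. The SD change with age in triceps was -0.50 to 0.036 for Fos, -0.13 to 0.013 for Junb, -0.22 to 0.12 for Egr1 and -0.22 to 0.11 for Atf3, and in gastrocnemius -0.48 to 0.028 for Atf3 and -0.039 to 0.21 for Myc. For age in triceps Atf3 was at -0.0035 without a filter. For muscle at 20 months Fos was at -0.0034 with relative log expression scaling and -0.0084 without a filter. Egr1 between muscles at 22 months was at 0.00041 with library totals. For the difference of age effects Egr1 was at -0.11 with limma-voom and -0.11 with the animal block, and Junb at -0.0021 with the block. The agreement of Junb was 0.0538 without centring and 0.0602 by Spearman's rho. Jun and Atf3 in triceps had a rho of -0.268, and Jun and Myc of -0.0316. In all, 1824 of the values for single genes or pairs kept direction and side, 71 reversed, 20 moved past a threshold and 17 fell short of it, and 187 counts stayed within 1.5 times of the main count and 7 did not. The tally includes values far from a threshold, such as every age difference, with an adjusted p of 0.416 or more in the main edgeR fits. For those, keeping side is no measure of support.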
